A study of Mus musculus with 160 samples.

Results

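Striatal RNA from Q175 mice that received CHDI-00390576 at 30 mg/kg was compared with striatal RNA from wild-type (WT) mice on vehicle. The 16 striatal libraries were taken by their titles from the 160 libraries of the study, which sampled 5 tissues of 32 mice. All mice were on the C57BL/6J background and were sampled at 6 months of age, and each of the 2 groups held 8 libraries, 4 from males and 4 from females. Q175 mice were heterozygous (Het) for a knock-in that gives 1 copy of the endogenous huntingtin gene, Htt, an expanded CAG repeat, and the other copy is normal. The compound, an inhibitor of the class IIa histone deacetylases, was dosed orally, b.i.d., starting at an age of 4 weeks. The WT mice carried no expanded allele and received vehicle on the same schedule.

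The 2 groups differ both in the allele and in the compound, and no WT mice on the compound are analysed here, so the allele and the compound cannot be told apart in this comparison alone. Striatal libraries of Q175 mice on vehicle (8) and on 100 mg/kg (8) exist beside them, and their values against the same WT libraries are given side by side further on. The mice on 30 mg/kg are other animals than the Q175 mice on vehicle. Each library came from a separate animal.

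The expanded repeat in Htt causes Huntington's disease, and the striatum is the brain region most affected. Nearly all striatal neurons are medium spiny neurons, inhibitory cells that receive dopamine and cortical glutamate. Those of the direct pathway carry the dopamine receptor Drd1 and substance P, and those of the indirect pathway carry Drd2, the adenosine receptor Adora2a and enkephalin. Dopamine and adenosine act in them on adenylyl cyclase, cAMP and the phosphatase inhibitor DARPP-32. The class IIa enzymes, Hdac4, Hdac5, Hdac7 and Hdac9, bind MEF2 transcription factors and hold their target genes back. Polycomb complexes keep developmental transcription factors silent in adult neurons.

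The 16 libraries held 30733700 to 37334800 estimated counts each. Values are CPM, counts scaled to the size of the library after TMM normalization, unless another scale is named, and CPM are not divided by transcript length, so they compare libraries and not genes. Summed levels of cell type and tissue markers are CPM of the plain library totals, without TMM. The summed level of 10 medium spiny neuron markers was 5946 to 7742 CPM in WT libraries, so that the tissue label and the markers went together. Before any result, 3 WT libraries stood apart. The male replicates M1, M2 and M3 of WT held liver transcripts, with a summed level of 19 liver markers of 504, 233 and 182 CPM, against at most 7.11 CPM in the other 13 libraries. Counts are therefore also given without these 3 libraries, a fit with 5 WT libraries of which 1 is male.

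Of 17229 genes tested, 572 rose and 580 fell at 30 mg/kg relative to WT at an adjusted p under 0.05 (edgeR's quasi-likelihood test with Benjamini-Hochberg adjustment), which is 6.69% of the genes, with 3.32% higher and 3.37% lower. Of these, 416 differed by more than 1.5-fold and 128 by more than 2-fold, 44 of them higher and 84 lower. The median log2 fold change was 0.01 over all genes tested and the median size was 0.47 over the genes called. Without the 3 WT libraries, 270 genes were higher (1.54%) and 276 lower (1.58%) of 17518 tested, 3.12% together, and 516 of the 1152 genes were called again. The column names of the deposited table come in 2 forms, one with a lane and an index and one with a number. Of the libraries with a lane and an index, 4 were WT and 3 were at 30 mg/kg, and within them 186 genes were called, while within the 4 WT and 5 treated libraries with a number 91 were called.

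Htt itself was lower at 30 mg/kg. The lowest, median and highest Htt levels were 112, 125 and 151 CPM in WT and 87.2, 90.2 and 115 CPM at 30 mg/kg (log2 fold change −0.44 ± 0.08, adjusted p = 0.000629), which is 1.36-fold. Treated libraries lay below every WT library in 7 of 8 cases. The count joins reads of both alleles, and the sources used here do not say whether reads over the repeat or the knocked-in stretch could map. The 4 targets of the compound did not pass the threshold. Hdac4 was at 15.96, 20.9 and 28.1 CPM in WT and 16.5, 18.7 and 26.0 CPM at 30 mg/kg (log2 fold change −0.15 ± 0.10, adjusted p = 0.461). Hdac5, Hdac7 and Hdac9 had log2 fold changes of −0.19 ± 0.24, −0.06 ± 0.21 and −0.03 ± 0.11, with adjusted p values of 0.767, 0.93 and 0.94. For each of the 4 deacetylases the groups overlapped. Of 15 MEF2 factors and reported MEF2 targets tested, 1 rose, the protocadherin Pcdh20, and none fell, with a median of −0.06.

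Among 16 genes of the dopamine and cAMP cascade of medium spiny neurons, 8 fell at 30 mg/kg, 0 rose and 8 did not pass, with a median log2 fold change of −0.32, beside 0.01 and 3.37% lower over all genes tested. In bulk tissue, fewer cells of a type and less RNA per cell cannot be told apart. Pde10a, the phosphodiesterase that degrades cAMP and cGMP in these neurons, was at 1581, 2067 and 2439 CPM in WT (lowest, median and highest library) and at 905, 1142 and 1255 CPM at 30 mg/kg. Every treated library was below every WT library, a 1.84-fold difference (log2 fold change −0.88 ± 0.12, adjusted p = 2.45e-05). Here and below, a lack of overlap in a called gene comes from the libraries that gave the call and adds no separate support. The share of all genes tested without overlap is not given here. Adcy5, the main striatal adenylyl cyclase, was at 456, 540.4 and 724 CPM in WT and 207, 297 and 434 CPM at 30 mg/kg (log2 fold change −0.81 ± 0.15, adjusted p = 0.000765), again with no overlap. Ppp1r1b, which encodes DARPP-32, was at 606, 928 and 1138 CPM in WT and 304, 556 and 754 CPM at 30 mg/kg (log2 fold change −0.75 ± 0.18, adjusted p = 0.00935). Its groups overlapped, with 5 treated libraries below the lowest WT library, and without the 3 WT libraries that held liver transcripts the call was lost (adjusted p = 0.0722). Pde1b, a calcium-dependent phosphodiesterase, fell by a log2 of −0.62 ± 0.12, adjusted p = 0.00156. Without those libraries 5 of the 16 genes still fell and the median was −0.29.

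Markers of the 2 output pathways were counted separately. Beside these and all later list counts stand 3.32% higher and 3.37% lower over all genes tested. Of 9 indirect pathway genes, 5 fell and 0 rose, with a median of −0.52. Penk, the enkephalin precursor, was at 714, 1026 and 1213 CPM in WT and 319, 482 and 592 CPM at 30 mg/kg, a 2.06-fold fall (log2 fold change −1.04 ± 0.15, adjusted p = 3.57e-05), and the groups did not overlap. Adora2a, the adenosine receptor of this pathway, was at 74.4, 93.6 and 125 CPM in WT and 36.1, 53.7 and 80.0 CPM at 30 mg/kg (log2 fold change −0.74 ± 0.18, adjusted p = 0.0104), with 6 treated libraries below the lowest WT library. Drd2 was at 69.1, 87.2 and 128 CPM in WT and 33.7, 60.7 and 89.7 CPM at 30 mg/kg (log2 fold change −0.62 ± 0.19, adjusted p = 0.0438), and its call was lost in 12 of the 16 fits that leave out 1 library, adjusted p up to 0.114. Without the 3 WT libraries its adjusted p was 0.106. Upb1, the enzyme beta-ureidopropionase, fell by a log2 of −0.90 ± 0.15, adjusted p = 0.000155. The orphan receptor Gpr6 fell by a log2 of −0.52 ± 0.08, adjusted p = 6.17e-05.

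Of 10 direct pathway genes, 3 fell and 1 rose, with a median of −0.09. The balance turned without the 3 WT libraries, as 1 fell and 2 rose (median −0.07). Drd1 was at 319, 370.5 and 459 CPM in WT and 212, 273 and 296 CPM at 30 mg/kg (log2 fold change −0.51 ± 0.09, adjusted p = 0.000316), with no overlap between groups. Pdyn, the dynorphin precursor, was at 71.9, 107 and 146 CPM in WT and 73.5, 84.4 and 92.4 CPM at 30 mg/kg (log2 fold change −0.33 ± 0.10, adjusted p = 0.0337). Its groups overlapped widely and the call was lost in 8 of the 16 fits that leave out 1 library, adjusted p up to 0.0911. Sfxn1, a mitochondrial serine transporter, fell by a log2 of −0.34 ± 0.08, adjusted p = 0.00421, and lost its call without the 3 WT libraries (adjusted p = 0.0671), as did Pdyn (adjusted p = 0.212). Eya1, a transcriptional coactivator and phosphatase, rose by 0.43 ± 0.09, adjusted p = 0.00364. Tac1, which encodes substance P, had a log2 fold change of 0.19 ± 0.08 and did not pass with all libraries (adjusted p = 0.162), and passed as a rise without the 3 WT libraries (0.31, adjusted p = 0.0257).

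**Figure D1:**
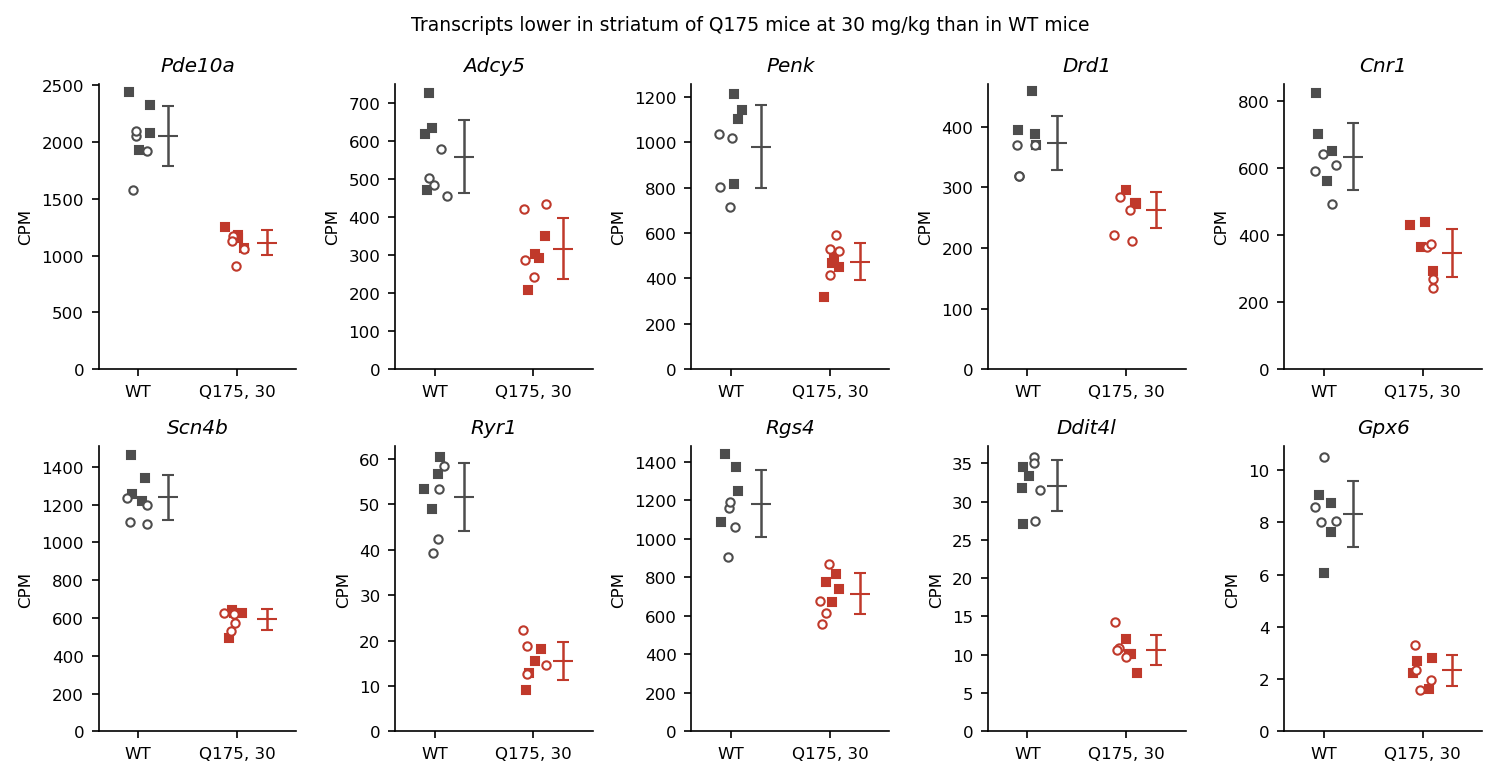
CPM of 10 transcripts in each of 8 WT and 8 Q175 libraries at 30 mg/kg from striatum (filled squares, males; open circles, females), with the mean ± SD of the group beside the points and axes that start at 0. In each of the 10 panels the treated libraries lie below all WT libraries, as for Pde10a, where the highest treated library is at 1255 CPM and the lowest WT library at 1581 CPM. The genes drawn were called in these same libraries, which favours such separation.

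Of 12 listed regulators of G protein signalling, 5 fell and 0 rose (median −0.31), and 3 fell without the 3 WT libraries or without any one of WT M1, F2 and F4 and of the treated M2 and M3. Rgs4, which shortens the signal of Gi- and Gq-coupled receptors, was at 903, 1175 and 1439 CPM in WT and 559, 707.1 and 870.0 CPM at 30 mg/kg (log2 fold change −0.72 ± 0.11, adjusted p = 6.29e-05). Rgs9, whose striatal form limits dopamine and opioid receptor signals, was at 342, 395 and 518 CPM in WT and 222, 259 and 282 CPM at 30 mg/kg (log2 fold change −0.69 ± 0.12, adjusted p = 0.000392). Rgs14, a scaffold for G protein and Ras signals, fell by 2.01-fold (log2 −1.004 ± 0.20, adjusted p = 0.00133). For all 3 genes the groups did not overlap. Of 21 other G protein-coupled receptors, 7 fell and 2 rose (median −0.33). Cnr1, the cannabinoid receptor CB1, was at 492, 625.2 and 822 CPM in WT and 242, 365 and 438 CPM at 30 mg/kg (log2 fold change −0.87 ± 0.15, adjusted p = 0.000253), with no overlap. Gpr83 fell by a log2 of −0.59 ± 0.08, adjusted p = 9.05e-06, and Gpr139, an orphan receptor, by −0.995 ± 0.29, adjusted p = 0.0348. The call of Gpr139 was lost in 9 of the 16 fits that leave out 1 library, adjusted p up to 0.0734, and also without the 3 WT libraries (adjusted p = 0.0609). Htr2c, a serotonin receptor, rose from 73.3, 85.8 and 136 CPM in WT to 113, 164 and 202 CPM at 30 mg/kg (log2 fold change 0.77 ± 0.14, adjusted p = 0.000759), and 7 treated libraries were above the highest WT library. Gpr149 rose by a log2 of 0.74 ± 0.12, adjusted p = 0.000124.

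Of 31 genes of dendritic spines and Ras-MAPK signalling, 16 fell and 0 rose, with a median of −0.47, and no member had a fold change above 0. Ptpn7, a tyrosine phosphatase of MAP kinases, was at 7.99, 9.85 and 10.6 CPM in WT and 3.03, 4.99 and 5.92 CPM at 30 mg/kg (log2 fold change −1.07 ± 0.15, adjusted p = 2.15e-05). Homer1, a scaffold of metabotropic glutamate receptors, was at 269, 356 and 383 CPM in WT and 149.6, 212 and 264 CPM at 30 mg/kg (log2 fold change −0.67 ± 0.18, adjusted p = 0.0157). Arpp21, a cAMP-regulated phosphoprotein abundant in these neurons, was at 1492, 1845 and 2272 CPM in WT and 887.6, 1209 and 1344 CPM at 30 mg/kg (log2 fold change −0.67 ± 0.11, adjusted p = 0.000177). None of these 3 genes had overlapping groups. The postsynaptic scaffold Shank3 fell by a log2 of −0.61 ± 0.17, adjusted p = 0.0245, and the striatal phosphatase Ptpn5 did not pass (−0.49 ± 0.16, adjusted p = 0.0609). Without the 3 WT libraries 8 of the 31 fell and the median was −0.47. The calls of Homer1 and Shank3 were lost there (adjusted p = 0.0572 and 0.0512), and that of Shank3 was lost in 6 of the 16 fits that leave out 1 library, adjusted p up to 0.0716.

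Ion channel genes moved in both directions. Of 10 sodium channel genes, 1 fell and 2 rose. Scn4b, the beta subunit that gives medium spiny neurons their resurgent sodium current, was at 1095, 1228 and 1464 CPM in WT and 494, 624 and 640.2 CPM at 30 mg/kg, a 2.08-fold fall with no overlap (log2 fold change −1.06 ± 0.12, adjusted p = 1.62e-06). Scn9a, a sodium channel best known from sensory neurons, rose from 7.18, 11.1 and 14.6 CPM in WT to 12.3, 22.6 and 28.5 CPM at 30 mg/kg (log2 fold change 0.98 ± 0.19, adjusted p = 0.00136), and Scn3b, another beta subunit, rose by a log2 of 0.37 ± 0.07, adjusted p = 0.000424. Of 35 calcium handling genes, 10 fell and 0 rose (median −0.19), and 6 fell without the 3 WT libraries. Ryr1, a calcium release channel of the endoplasmic reticulum, was at 39.2, 53.4 and 60.3 CPM in WT and 9.16, 15.1 and 22.3 CPM at 30 mg/kg, a 3.31-fold fall (log2 fold change −1.73 ± 0.20, adjusted p = 1.39e-06). Itpr1, the inositol trisphosphate receptor, fell by a log2 of −0.55 ± 0.10, adjusted p = 0.000577, without overlap in either gene. Atp2b1, a plasma membrane calcium pump, fell by −0.56 ± 0.12, adjusted p = 0.00263. Of 41 potassium channel genes, 6 fell and 1 rose, and without the 3 WT libraries 3 fell and 0 rose. Kcnh4 fell by a log2 of −0.88 ± 0.21, adjusted p = 0.00678, Kcnab1 by −0.46 ± 0.10, adjusted p = 0.004, and Kcnip2 by −0.40 ± 0.11, adjusted p = 0.0202, while Kcng1 rose by 0.51 ± 0.15, adjusted p = 0.0289. Of these 4, Kcnh4 was called without the 3 WT libraries as well, and the others were not. The call of Kcng1 was lost in 8 of the 16 fits that leave out 1 library, adjusted p up to 0.0724, and that of Kcnip2 was lost without the treated replicate M4 (adjusted p = 0.0561). Of 36 glutamate and GABA receptor genes, 4 fell and 0 rose, among them the kainate receptor Grik2 (−0.55 ± 0.12, adjusted p = 0.00377) and the extrasynaptic GABA receptor subunit Gabrd (−0.63 ± 0.18, adjusted p = 0.0295), whose call was lost in 8 of the 16 fits that leave out 1 library, adjusted p up to 0.0752, and also without the 3 WT libraries (adjusted p = 0.0875).

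Of 14 neuropeptide and peptide processing genes, 3 fell, Penk, Pdyn and the convertase Pcsk2 (−0.18 ± 0.05, adjusted p = 0.0341), and 0 rose. The call of Pcsk2 was lost in 8 of the 16 fits that leave out 1 library, adjusted p up to 0.0855, and without any one of the treated M1, M2 and M3 1 gene of the list fell. In the fit without the 3 WT libraries 2 fell and 1 rose, and Pcsk2 lost its call (adjusted p = 0.225). Of 24 transcription factors that define striatal neurons, 4 fell and 0 rose (median −0.14), and 1 fell without the 3 WT libraries. Npas2, a partner of the circadian factor BMAL1, was at 52.7, 61.9 and 68.7 CPM in WT and 35.1, 39.8 and 43.2 CPM at 30 mg/kg (log2 fold change −0.62 ± 0.09, adjusted p = 3.24e-05), with no overlap. Rxrg, a retinoid receptor, fell by −0.63 ± 0.14, adjusted p = 0.00565 and Foxo1 by −0.34 ± 0.08, adjusted p = 0.0105, and both calls were lost without the 3 WT libraries (adjusted p = 0.0598 and 0.0519). Bcl11b and Foxp1, which establish medium spiny neurons, did not pass (−0.27 ± 0.10 and −0.23 ± 0.08, adjusted p = 0.111 and 0.0943). Of 24 immediate early genes, which follow neuronal activity, 4 fell and 0 rose, with a median of −0.36. This count was 8 without the treated replicate M4 and 2 without any one of the treated F3, F4, M1 and M2 and of WT F1, F4 and M1. Egr2 was at 3.72, 10.9 and 19.3 CPM in WT and 3.16, 4.15 and 8.13 CPM at 30 mg/kg (log2 fold change −1.09 ± 0.29, adjusted p = 0.0189), with 3 treated libraries below the lowest WT library. In WT, Egr2 was at 3.72 to 8.64 CPM in males and 13.2 to 19.3 CPM in females. Its change was −0.40 in males and −1.66 in females (adjusted p of the difference with edgeR = 0.771). The list median was −0.14 in males and −0.57 in females. Egr1 fell by −0.38 ± 0.12, adjusted p = 0.0451, Ier5 by −0.39 ± 0.12, adjusted p = 0.0456, and Arc did not pass (−0.56 ± 0.22, adjusted p = 0.146). The calls of Egr1 and Ier5 were each lost in 12 of the 16 fits that leave out 1 library (adjusted p up to 0.118 and 0.106), and that of Ier5 also without the 3 WT libraries (adjusted p = 0.328).

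**Figure D2:**
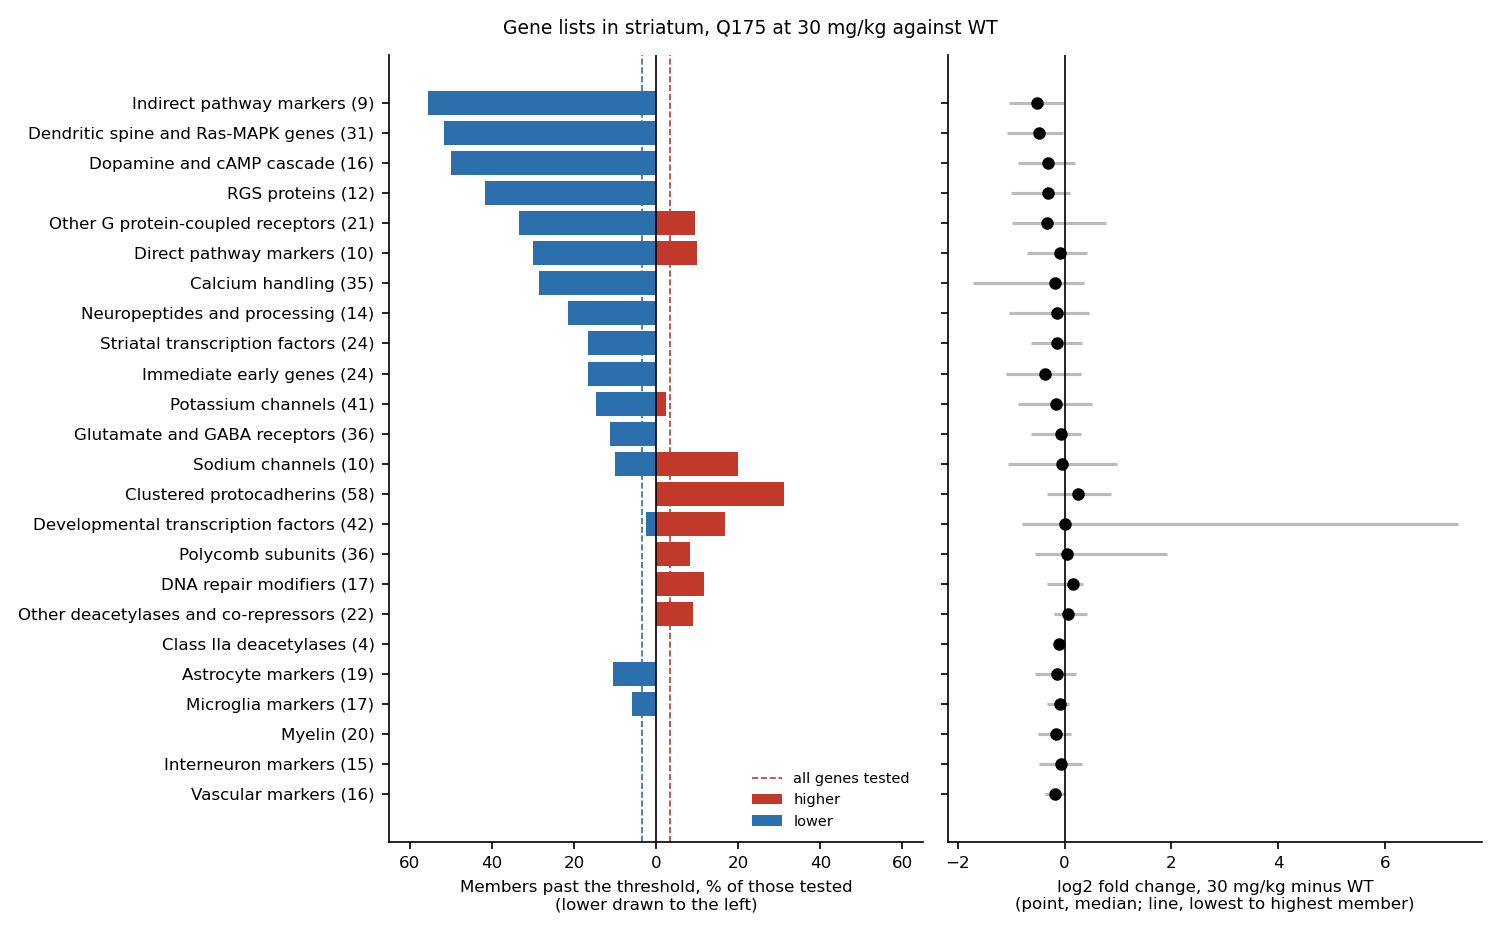
For 24 gene lists (number of members tested in brackets), the left panel shows the percentage of tested members higher (right) or lower (left) at 30 mg/kg than in WT at an adjusted p under 0.05, with dashed lines at 3.32% higher and 3.37% lower for all genes tested. The right panel shows the median (point) and the lowest and highest (line) log2 fold change of the members tested. The bars of the neuronal signalling lists are longer on the left, except for sodium channels (20% higher, 10% lower). Those of protocadherins, developmental transcription factors and Polycomb subunits point mostly right. For the developmental factors this share is no measure of the family, since a silent gene passes the filter on low counts only where some libraries express it.

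The same contrast was read over genes ranked by how much more they were expressed in striatum than in cortex, with the ranking taken from the Q175 mice on vehicle, which belong to neither group. Of the 100 genes with the highest ratio, all at least 5.05-fold higher in striatum, 41 fell and 6 rose, with a median of −0.27. Among all 14407 genes ranked, 3.43% fell and the median was 0.01. Of the 100 genes at the other end, higher in cortex, 2 fell and 1 rose. The 6 that rose were Wt1, Onecut2 (0.58 ± 0.15, adjusted p = 0.0179), Dsg1c (0.78 ± 0.14, adjusted p = 0.000409), the predicted gene Gm37460 (0.82 ± 0.24, adjusted p = 0.0361), the interferon lambda receptor Ifnlr1 (1.08 ± 0.26, adjusted p = 0.00846) and Slitrk6, a neuronal adhesion protein (1.01 ± 0.19, adjusted p = 0.000973), named after their values were seen. The ranking itself takes in the Q175 mice, so that a gene raised in their striatum ranks higher.

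Genes that adult striatum hardly expresses were among the largest rises. Of 148 developmental transcription factors in the table, 42 passed the filter on low counts, and of these 7 rose and 1 fell, with a median of 0.02. A silent gene passes that filter only where some libraries express it, so the share that rose is no measure of the family. Wt1, a transcription factor that kidney and gonads need to develop, was at 0, 0.0894 and 0.267 CPM in WT and 3.51, 4.77 and 5.54 CPM at 30 mg/kg (log2 fold change 5.36 ± 0.65, adjusted p = 3.43e-06). Onecut1, a homeobox factor of liver, pancreas and motor neuron development, was at 0, 0.0455 and 0.195 CPM in WT and 0.677, 1.43 and 2.36 CPM at 30 mg/kg (log2 fold change 4.41 ± 0.75, adjusted p = 0.000253). Hoxc4 had no count in any WT library and was at 0.361, 0.559 and 0.894 CPM at 30 mg/kg (adjusted p = 3.24e-05), at least 6.48-fold higher when WT is set to 3 counts in each library. Shox2, a homeobox factor of limb and heart development, was at 0.186, 0.218 and 0.624 CPM in WT and 1.21, 1.73 and 2.68 CPM at 30 mg/kg (log2 fold change 2.64 ± 0.38, adjusted p = 3.6e-05). In each of these 4 genes all 8 treated libraries were above all WT libraries. Hoxa7 (1.92 ± 0.39, adjusted p = 0.00206), Onecut2 and Dmrta1 (0.79 ± 0.23, adjusted p = 0.0309) were the other members that rose, and Gbx1 fell (−0.80 ± 0.25, adjusted p = 0.0467). Onecut2 was not silent in WT striatum, where its libraries ran from 50.1 to 98.2 CPM. The call of Gbx1 was lost in 11 of the 16 fits that leave out 1 library, adjusted p up to 0.12, that of Dmrta1 was lost in 9 of the 16 fits that leave out 1 library, adjusted p up to 0.072, and that of Onecut2 was lost without the treated replicate M4 (adjusted p = 0.058). Without the 3 WT libraries the same number, 7, rose and 0 fell.

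**Figure D3:**
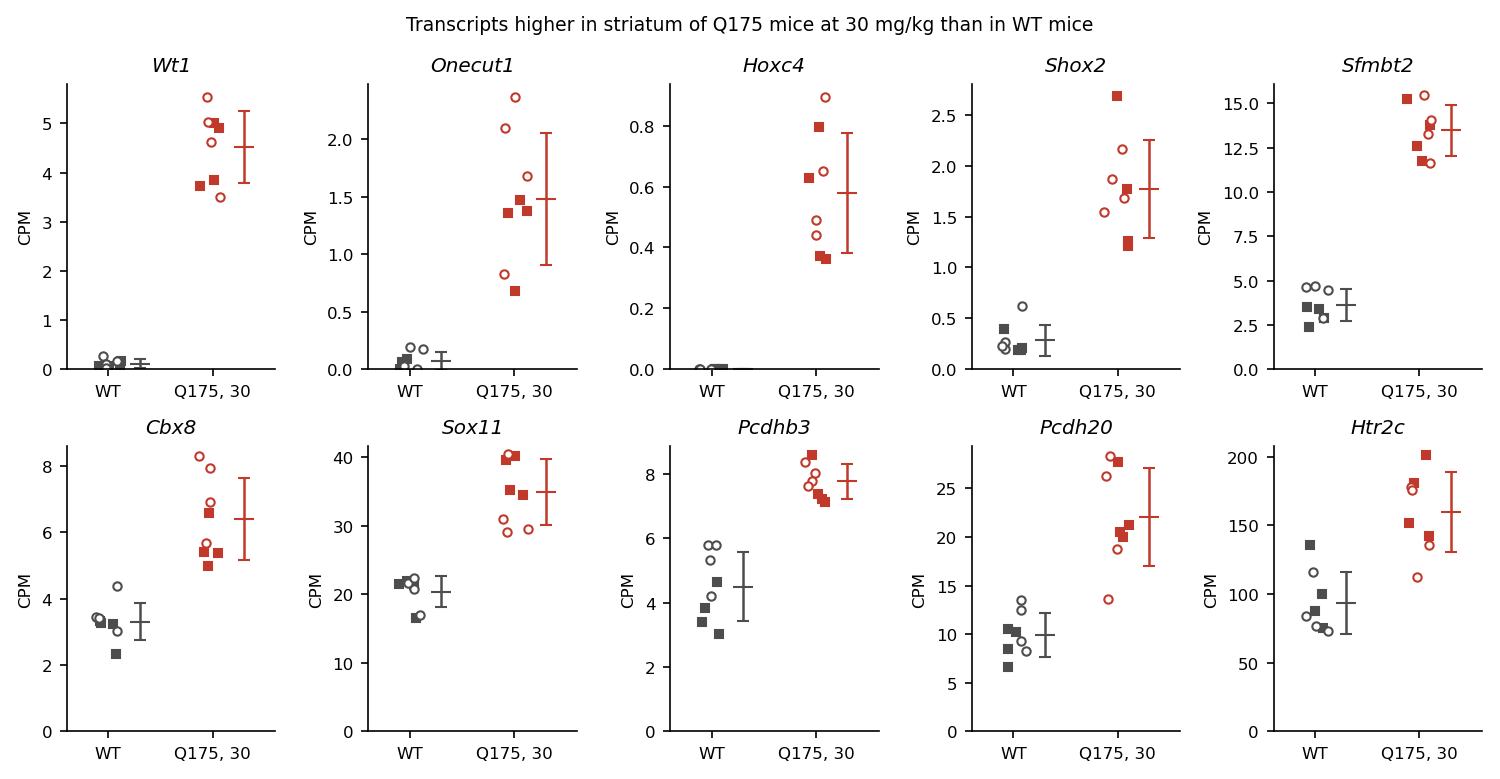
CPM of 10 transcripts in each of 8 WT and 8 Q175 libraries at 30 mg/kg from striatum (filled squares, males; open circles, females), with the mean ± SD of the group beside the points and axes that start at 0. Treated libraries lie above all WT libraries in 9 panels, and in the panel of Htr2c 1 treated library at 113 CPM is below the highest WT library at 136 CPM. The genes drawn were called in these same libraries, which favours such separation.

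Among 36 Polycomb genes, 3 rose (8.33%, beside 3.32% of all genes tested) and 0 fell. The same number rose without the 3 WT libraries. The list median of 0.05 was near the 0.01 of all genes tested, so the count is of single genes and not of the family. Sfmbt2, a Polycomb protein with MBT domains, was at 2.37, 3.46 and 4.72 CPM in WT and 11.6, 13.5 and 15.5 CPM at 30 mg/kg, a 3.77-fold rise (log2 fold change 1.91 ± 0.18, adjusted p = 3.49e-08). Cbx8, a chromobox subunit of Polycomb repressive complexes that reads methylated histone H3, was at 2.35, 3.30 and 4.38 CPM in WT and 4.99, 6.14 and 8.32 CPM at 30 mg/kg (log2 fold change 0.95 ± 0.17, adjusted p = 0.000436). The groups overlapped in neither gene. Ezh2, the histone methyltransferase of these complexes, did not pass (−0.12 ± 0.10, adjusted p = 0.62). Of 22 other deacetylases and co-repressors, Hdac1 (0.41 ± 0.07, adjusted p = 0.000436) and Rcor3 (0.33 ± 0.10, adjusted p = 0.0479) rose and 0 fell, and the call of Rcor3 was lost without the 3 WT libraries and lost in 13 of the 16 fits that leave out 1 library, adjusted p up to 0.139.

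Promoter sequences of 6 genes are shown because 4 of them are transcription factor or Polycomb genes that rose without overlap between the groups and 2 are neuronal genes that fell without overlap. Each runs from 250 bases before to 50 bases after the annotated start of the gene, on the gene's strand, from RefSeq on GRCm38.p6. The capitals mark CpG dinucleotides, which mammalian CpG islands keep and other sequence loses.
Onecut1 (chr9:74861671-74861970, plus strand): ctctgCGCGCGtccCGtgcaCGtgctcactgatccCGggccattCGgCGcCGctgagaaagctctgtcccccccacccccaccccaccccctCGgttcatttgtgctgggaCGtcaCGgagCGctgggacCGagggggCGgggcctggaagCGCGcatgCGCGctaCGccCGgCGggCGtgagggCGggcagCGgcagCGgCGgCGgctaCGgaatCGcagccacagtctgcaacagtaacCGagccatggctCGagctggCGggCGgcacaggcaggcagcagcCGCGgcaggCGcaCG
Shox2 (chr3:66981722-66982021, minus strand): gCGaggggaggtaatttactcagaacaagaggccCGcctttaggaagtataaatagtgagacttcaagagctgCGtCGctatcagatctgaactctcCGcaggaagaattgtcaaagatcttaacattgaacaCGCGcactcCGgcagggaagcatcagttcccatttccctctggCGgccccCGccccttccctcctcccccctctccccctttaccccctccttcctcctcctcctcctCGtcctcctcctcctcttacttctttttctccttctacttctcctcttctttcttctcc
Sfmbt2 (chr2:10370201-10370500, plus strand): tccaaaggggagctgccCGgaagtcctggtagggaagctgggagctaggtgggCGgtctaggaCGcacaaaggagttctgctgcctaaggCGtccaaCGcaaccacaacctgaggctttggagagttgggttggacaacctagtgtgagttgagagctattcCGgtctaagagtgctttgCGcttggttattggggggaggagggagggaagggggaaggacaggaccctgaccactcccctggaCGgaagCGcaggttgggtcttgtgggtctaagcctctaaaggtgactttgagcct
Cbx8 (chr11:119040864-119041163, minus strand): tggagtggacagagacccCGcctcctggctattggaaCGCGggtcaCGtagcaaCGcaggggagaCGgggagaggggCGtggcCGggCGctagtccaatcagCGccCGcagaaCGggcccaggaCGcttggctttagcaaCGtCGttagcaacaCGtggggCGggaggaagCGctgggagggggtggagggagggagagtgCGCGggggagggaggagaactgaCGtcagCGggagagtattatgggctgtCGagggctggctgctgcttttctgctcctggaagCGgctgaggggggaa
Scn4b (chr9:45138374-45138673, plus strand): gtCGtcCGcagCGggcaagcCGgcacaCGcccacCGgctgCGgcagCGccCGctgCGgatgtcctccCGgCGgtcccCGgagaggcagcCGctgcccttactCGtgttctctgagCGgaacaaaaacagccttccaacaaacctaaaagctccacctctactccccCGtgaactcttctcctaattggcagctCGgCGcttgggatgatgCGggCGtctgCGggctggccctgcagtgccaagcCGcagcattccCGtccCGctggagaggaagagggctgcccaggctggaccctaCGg
Pde10a (chr17:8801495-8801794, plus strand): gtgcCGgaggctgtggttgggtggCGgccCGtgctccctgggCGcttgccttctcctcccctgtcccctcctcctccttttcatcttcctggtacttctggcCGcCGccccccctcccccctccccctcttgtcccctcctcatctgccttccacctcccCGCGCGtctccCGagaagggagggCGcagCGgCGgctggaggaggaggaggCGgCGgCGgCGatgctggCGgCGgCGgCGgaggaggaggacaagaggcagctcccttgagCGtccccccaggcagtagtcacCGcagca
The 300 bases held 38 CpG in Onecut1, 11 in Shox2, 9 in Sfmbt2, 24 in Cbx8, 26 in Scn4b and 23 in Pde10a. For Sfmbt2 and Pde10a the table lists 2 starts and the first is shown. The cAMP response element TGACGTCA, searched on both strands, is in the Cbx8 window and in none of the other 5. It is in 1.88% of all 27025 promoters of the table and in 3.07% of the 12261 promoters of genes tested. Only 71.2% of the genes tested have an entry there, fewer than 80%, so a comparison of promoter content between genes that rose and fell is void. Wt1 and Penk were not among the entries.

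The clustered protocadherins, adhesion proteins that give single neurons their surface identity, rose together in the beta cluster. Of 58 clustered protocadherin entries tested, 18 rose and 0 fell, with a median of 0.25, and 10 rose without the 3 WT libraries. In the beta cluster 13 of 22 rose (median 0.54), in the alpha cluster 3 of 12 (median 0.30), among the gamma a and b genes 2 of 19 (median −0.02) and among the 5 c-type genes 0. The 10 that rose without the 3 WT libraries were all of the beta cluster. The summed mean level of the beta cluster was 184 CPM in WT and 255 CPM at 30 mg/kg. Pcdhb3 was at 3.02, 4.41 and 5.79 CPM in WT and 7.13, 7.71 and 8.60 CPM at 30 mg/kg (log2 fold change 0.81 ± 0.10, adjusted p = 9.3e-06), with no overlap. Pcdhgb1 rose by 0.78 ± 0.17, adjusted p = 0.00333 and Pcdha7 by 0.77 ± 0.18, adjusted p = 0.00663, and both lost their call without the 3 WT libraries. Alpha and gamma transcripts share constant exons and beta genes resemble each other, so the division of reads among members depends on the counting, which the sources used here do not describe. Pcdh20, outside the clusters, was at 6.59, 9.76 and 13.5 CPM in WT and 13.6, 20.9 and 28.3 CPM at 30 mg/kg (log2 fold change 1.15 ± 0.14, adjusted p = 3.19e-06).

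The remaining large rises were of low-level transcripts. Crnde, a long noncoding RNA, was at 0.125, 0.230 and 0.681 CPM in WT and 0.696, 1.499 and 1.98 CPM at 30 mg/kg (log2 fold change 2.19 ± 0.35, adjusted p = 0.000107). Rgs13, a G protein regulator known from B cells, was at 0.131, 0.302 and 0.608 CPM in WT and 0.620, 1.19 and 1.56 CPM at 30 mg/kg (log2 fold change 1.94 ± 0.26, adjusted p = 1.39e-05). Dsp, which encodes the junction protein desmoplakin, was at 0.293, 0.501 and 0.653 CPM in WT and 0.842, 1.68 and 2.22 CPM at 30 mg/kg (log2 fold change 1.65 ± 0.28, adjusted p = 0.000227). Treated and WT libraries did not overlap in these 3 genes or in Abhd1 (1.18 ± 0.25, adjusted p = 0.00289). They did for the metalloprotease Adamts19 (1.41 ± 0.25, adjusted p = 0.000482) and the NKG2D ligand H60b (1.12 ± 0.23, adjusted p = 0.00189). Gemin4, a component of the SMN complex, was spread over 0.0653, 0.932 and 2.56 CPM in WT and 1.62, 4.95 and 7.17 CPM at 30 mg/kg (log2 fold change 2.14 ± 0.62, adjusted p = 0.0311), and its call was lost without the 3 WT libraries (adjusted p = 0.0996) and lost in 7 of the 16 fits that leave out 1 library, adjusted p up to 0.0625.

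Other large falls were of genes of several functions. Gpx6, a glutathione peroxidase, was at 6.07, 8.33 and 10.5 CPM in WT and 1.601, 2.301 and 3.32 CPM at 30 mg/kg, a 3.57-fold fall (log2 fold change −1.83 ± 0.23, adjusted p = 6.25e-06). Wnt8b, a secreted Wnt ligand, was at 1.10, 1.91 and 4.13 CPM in WT and 0.207, 0.464 and 0.812 CPM at 30 mg/kg (log2 fold change −2.29 ± 0.32, adjusted p = 2.45e-05). Ddit4l, an inhibitor of mTOR signalling, was at 27.0, 32.5 and 35.9 CPM in WT and 7.61, 10.3 and 14.3 CPM at 30 mg/kg (log2 fold change −1.59 ± 0.21, adjusted p = 1.05e-05). None of the 3 had overlapping groups. Slc4a11, a membrane transporter, was at 4.98, 6.10 and 12.2 CPM in WT and 0.905, 2.08 and 2.995 CPM at 30 mg/kg (log2 fold change −1.82 ± 0.25, adjusted p = 1.64e-05). Phex, an endopeptidase of bone mineral balance, fell by a log2 of −1.66 ± 0.24, adjusted p = 3.89e-05, Il2rb, an interleukin receptor subunit, by −1.70 ± 0.26, adjusted p = 6.9e-05, and Sec14l3, a lipid-binding protein, by −1.64 ± 0.16, adjusted p = 1.47e-07. These 4 genes and Dgat2l6 (−1.49 ± 0.20, adjusted p = 1.72e-05) also had no overlap. Plekhg4, a guanine nucleotide exchange factor (−1.61 ± 0.28, adjusted p = 0.000403), and the noncoding RNA Abhd11os (−1.56 ± 0.35, adjusted p = 0.00479) each had 7 treated libraries below all WT libraries.

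Zfp781, a zinc finger gene, had no count in any of the 8 treated libraries and was at 0, 1.82 and 4.52 CPM in WT, where 5 of 8 libraries had counts. It was at least 21.7-fold lower at 30 mg/kg when the treated group is set to 3 counts in each library (adjusted p = 0.0268), and the call was lost without the 3 WT libraries (adjusted p = 0.102) and without WT M2 alone (adjusted p = 0.051). The mean of Q175 mice on vehicle was 0.541 ± 1.03 CPM and that at 100 mg/kg 0.882 ± 1.29 CPM (SD, n = 8). Zinc finger genes of this kind have near copies, so its count is uncertain.

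Genes with small adjusted p values and moderate differences were named after their values were seen. Krt9, a keratin, was at 27.4, 31.0 and 36.8 CPM in WT and 11.8, 15.7 and 18.2 CPM at 30 mg/kg (adjusted p = 1.98e-08). Hipk4, a protein kinase, was at 65.3, 68.4 and 74.6 CPM in WT and 34.5, 36.8 and 42.5 CPM at 30 mg/kg (log2 fold change −0.89 ± 0.08, adjusted p = 3.49e-08). Traip, a ubiquitin ligase of the DNA damage response, was at 32.5, 41.0 and 46.4 CPM in WT and 15.0, 19.4 and 24.2 CPM at 30 mg/kg (log2 fold change −1.04 ± 0.11, adjusted p = 1.58e-07). All treated libraries were below all WT libraries for these 3 genes. Hrk, a BH3-only promoter of neuronal apoptosis, was at 52.1, 64.9 and 75.9 CPM in WT and 28.1, 30.9 and 33.6 CPM at 30 mg/kg (log2 fold change −1.03 ± 0.13, adjusted p = 6.25e-06). Clspn, a DNA replication checkpoint protein, fell by a log2 of −1.18 ± 0.16, adjusted p = 1.19e-05, the kinase Vrk1 by −0.62 ± 0.07, adjusted p = 1.39e-06 and the angiotensin peptide receptor Mas1 by −1.03 ± 0.19, adjusted p = 0.000577. Among rises of this kind, Sox11, a transcription factor of immature neurons, was at 16.5, 21.4 and 22.4 CPM in WT and 29.1, 34.8 and 40.5 CPM at 30 mg/kg (log2 fold change 0.77 ± 0.12, adjusted p = 8.64e-05), and Stmn2, a microtubule regulator of growing axons, rose by 0.61 ± 0.09, adjusted p = 3.89e-05. Cyp4x1, a cytochrome P450 of brain, rose by 0.61 ± 0.08, adjusted p = 1.64e-05. Oxtr, the oxytocin receptor, rose by 0.76 ± 0.20, adjusted p = 0.0187 and lost its call without the 3 WT libraries (adjusted p = 0.207).

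Few members passed in lists for other cell types. No member passed among 20 myelin genes (median −0.17), 8 oligodendrocyte precursor genes (−0.15), 16 vascular genes (−0.17), 15 interneuron genes (−0.07), 13 cortical genes (0.12) and 8 thalamic and hypothalamic genes (−0.02). The summed level of 4 oligodendrocyte markers ran from 4249 to 6238 CPM in WT and from 3483 to 5358 CPM at 30 mg/kg, and that of 4 microglial markers from 164 to 190.0 and from 132 to 186 CPM. Both ranges overlap between the groups. The 10 medium spiny neuron markers summed to 3901 to 4918 CPM at 30 mg/kg, with 7 lower and 0 higher, and this range did not meet that of WT. Of 19 astrocyte genes 2 fell, the intermediate filament Gfap (−0.56 ± 0.17, adjusted p = 0.0386) and glutamine synthetase, Glul (−0.22 ± 0.07, adjusted p = 0.0405), and of 17 microglial genes 1 fell, Fcrls (−0.32 ± 0.10, adjusted p = 0.0438), and none of these 3 was called without the 3 WT libraries. Their calls were lost in 10, 13 and 12 of the 16 fits that leave out 1 library, with adjusted p up to 0.111, 0.0907 and 0.105.

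No member passed among 81 genes of oxidative phosphorylation (median 0.02), 13 mitochondrially encoded genes (0.14), 83 ribosomal protein genes (−0.05), 38 proteasome genes (0.03), 24 heat shock genes (0.04), 26 cholesterol synthesis genes (0.04), 21 interferon response genes (−0.09) and 11 neurotrophin genes (−0.22). Of 27 genes of the unfolded protein response, Asns rose (0.16 ± 0.04, adjusted p = 0.0172), and Trib3 (−0.88 ± 0.23, adjusted p = 0.017) and Atf6 (−0.55 ± 0.09, adjusted p = 0.000321) fell. Asns and Trib3 lost their calls without the 3 WT libraries (adjusted p = 0.107 and 0.187), and that of Asns was also lost with the 16 libraries fitted alone, with no filter on low counts and with limma on FPKM. Of 21 circadian genes, Npas2 and Arntl (−0.29 ± 0.09, adjusted p = 0.0385), which encodes BMAL1, fell, and the call of Arntl was lost in 11 of the 16 fits that leave out 1 library, adjusted p up to 0.0795, and also without the 3 WT libraries (adjusted p = 0.191). Of 18 p53 target genes, Ddit4l fell. Of 18 huntingtin partners Itpr1 fell. Of 17 DNA repair genes, from a list of modifiers of repeat length, the ribonucleotide reductase subunit Rrm2b (0.34 ± 0.11, adjusted p = 0.0441) and the replication protein Rpa1 (0.17 ± 0.05, adjusted p = 0.0311) rose and neither did without the 3 WT libraries. Their calls were lost in 12 and 9 of the 16 fits that leave out 1 library, with adjusted p up to 0.125 and 0.0737.

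Genes of blood, muscle and choroid plexus had no call, with medians of −0.17, 0.02 and −0.77, and the last became 0.15 without the 3 WT libraries. The summed level of 3 choroid plexus markers ran from 7.83 to 183 CPM in WT and from 7.31 to 83.0 CPM at 30 mg/kg. Liver genes were lower at 30 mg/kg than in WT with all libraries and not without the 3 WT libraries. Of 7 tested, 5 fell (median −2.58), and without these libraries 0 fell (median 0.20). Without WT M1 alone 1 fell, and without any one of the 4 treated males 2 fell. Alb, serum albumin, was at 0.0567, 0.821 and 302 CPM in WT and 0.0258, 0.807 and 2.83 CPM at 30 mg/kg (log2 fold change −4.60 ± 1.33, adjusted p = 0.0315). Gc (−3.43 ± 0.92, adjusted p = 0.0185) and Hpx (−2.90 ± 0.67, adjusted p = 0.00618), also plasma proteins of the liver, had a fold change above 0 without those libraries (1.44 and 0.01, as had Alb, 0.80). Of 123 tested genes over 100-fold higher in liver than in striatum, 27 fell and 0 rose, and 4 fell without those libraries. These 27 are among the 580 falls, and 553 remain beside them.

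By position, the share of genes that rose was highest on chromosomes 18 and X, beside 3.32% of all genes. Of 473 genes tested on chromosome 18, 40 rose (8.46%) and 18 fell, and the clustered protocadherins, which lie there, made up 18 of the rises. Among the other 415 genes of the chromosome 22 rose and 18 fell. Of 617 genes tested on the X chromosome, 52 rose (8.43%) and 12 fell (1.94%), and without the 3 WT libraries 23 rose and 5 fell. The 52 had a median log2 difference of 0.45 in males and 0.33 in females, and both groups hold equal numbers of each sex. The median over all X-linked genes was 0.10 at 30 mg/kg, −0.003 in Q175 on vehicle and 0.11 at 100 mg/kg, each against the same WT libraries. Among the 20 tested genes on each side of Htt on chromosome 5, 3 rose and 1 fell, which is 10% of 40, beside 6.69% over all genes. Grk4, the nearest tested gene on one side and a G protein receptor kinase, was at 2.08, 2.57 and 3.03 CPM in WT and 2.48, 3.73 and 4.67 CPM at 30 mg/kg (log2 fold change 0.54 ± 0.13, adjusted p = 0.0102), and its call was lost without the 3 WT libraries (adjusted p = 0.0643).

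The sexes were compared in a separate fit of the same 32 striatal libraries, with each group split by sex and its own estimate of the spread. No gene differed in the 30 mg/kg effect between males and females at an adjusted p under 0.05 with edgeR (0 of 17229, 0%), and DESeq2 called 7. At an unadjusted p under 0.05, 601 genes differed with edgeR, fewer than the 1 in 20 that chance gives. The 3 WT libraries that held liver transcripts are 3 of the 4 WT males. The median effect of the dopamine and cAMP genes was −0.47 in males and −0.27 in females, and that of the spine and Ras-MAPK genes −0.56 and −0.29. Penk changed by −1.30 in males and −0.79 in females (adjusted p of the difference = 0.771), and Scn4b by −1.14 and −0.98 (0.808, adjusted p). Neither difference between the sexes passed the threshold.

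The other Q175 groups share the 8 WT libraries with this comparison, so the 3 sets of differences are not independent and are given side by side without a test of their likeness. Q175 mice on vehicle had 447 genes higher and 545 lower than WT (2.59% and 3.16%, together 5.76% of 17229), and those at 100 mg/kg 414 higher (2.4%) and 437 lower (2.54%, together 4.94%). Pde10a differed from WT by −0.90 ± 0.12, −0.88 ± 0.12 and −0.71 ± 0.12 (vehicle, then 30 mg/kg, then 100 mg/kg). Scn4b gave −0.94 ± 0.12, −1.06 ± 0.12 and −0.97 ± 0.12 in the same order, and Sfmbt2 1.67 ± 0.18, 1.91 ± 0.18 and 1.68 ± 0.18. These 3 genes passed in all groups. For 3 other genes the value on vehicle was the one nearest to 0. Adcy5 gave −0.42 ± 0.15, −0.81 ± 0.15 and −0.72 ± 0.15, and Adora2a −0.27 ± 0.18, −0.74 ± 0.18 and −0.64 ± 0.18. Ppp1r1b gave −0.39 ± 0.18, −0.75 ± 0.18 and −0.69 ± 0.18. In these 3 genes, as in Hdac5, F2 and F4 were the highest libraries at 30 mg/kg and F3 and M4 the lowest. The same order held for other named genes, among them Ryr1, Rgs14, Kcnh4, Kcnip2, Gabrd, Rxrg, Ptpn5, Plekhg4 and Abhd11os. It did not hold for Pde10a or Cnr1. The genes with this order may therefore share a pattern over the libraries and not be separate examples, also across the gene lists. For Cnr1, Homer1 and Drd1 the value on vehicle was the one farthest from 0. Cnr1 gave −1.08 ± 0.15, −0.87 ± 0.15 and −0.76 ± 0.15, Homer1 −0.78 ± 0.18, −0.67 ± 0.18 and −0.32 ± 0.18, and Drd1 −0.61 ± 0.09, −0.51 ± 0.09 and −0.39 ± 0.09. Both sets of examples were picked with these values in view.

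The direct test of 30 mg/kg against Q175 on vehicle called no gene with edgeR (0 of 17229, 0%, with 2873 at an unadjusted p under 0.05). Those 2873 genes exceed the share of 0.05 that chance gives. What this excess comes from was not tested. The lowest adjusted p among the 1152 genes was 0.288. Adcy5 had a log2 difference of −0.39 (adjusted p = 0.288) and Adora2a of −0.47 (adjusted p = 0.288). A p that misses the threshold does not show that the groups were alike. By list, the dopamine and cAMP genes had 4 falls on vehicle, against 8 at 30 mg/kg and 6 at 100 mg/kg, and the spine and Ras-MAPK genes 14, 16 and 10. Calcium handling genes had 13, 10 and 7 falls. Clustered protocadherins had 9, 18 and 18 rises, and Polycomb genes 3 in each group. The myelin list had 7 falls on vehicle, against 0 at 30 mg/kg and 4 at 100 mg/kg. Its medians were close, at −0.17, −0.17 and −0.19 in that order, so these counts do not show a different size of change.

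**Figure D4:**
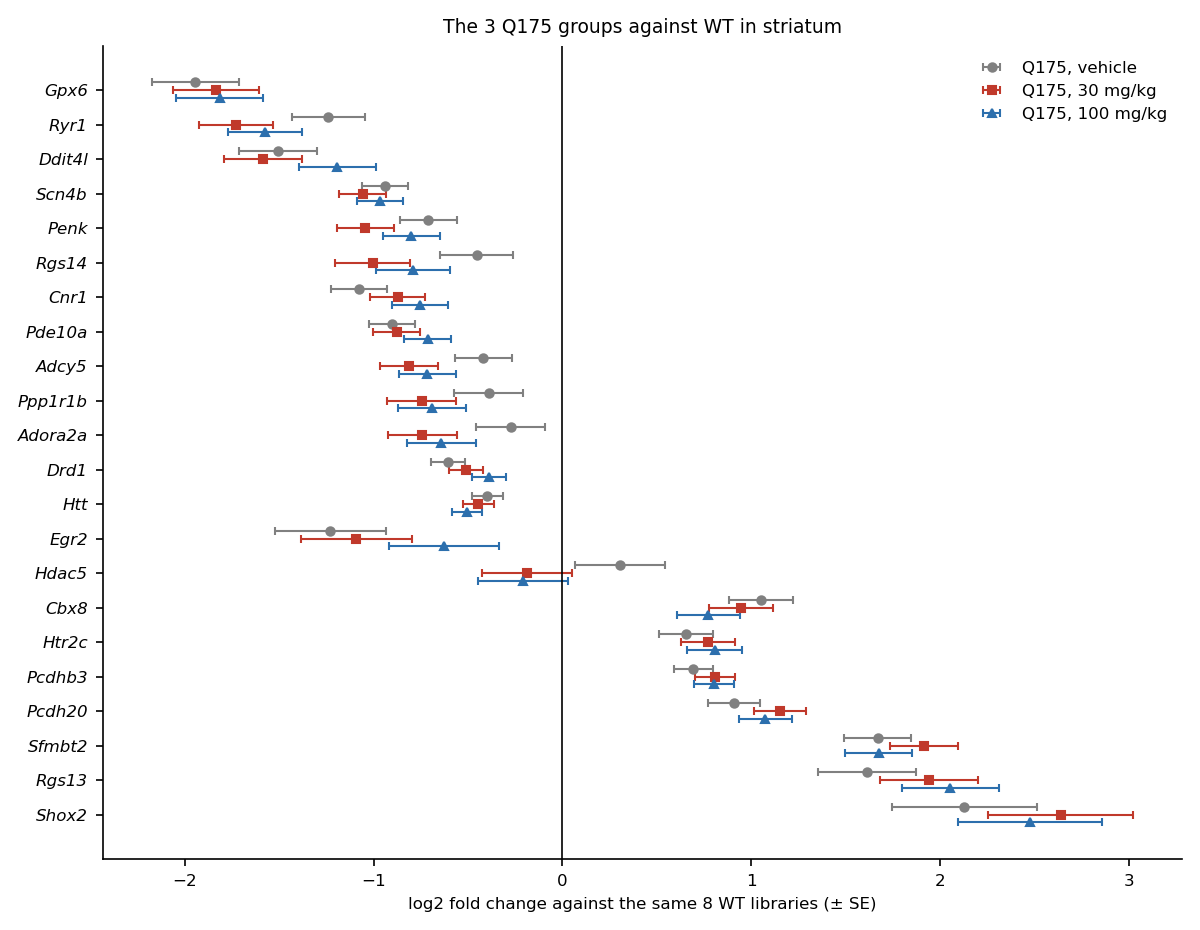
Log2 fold change ± SE against the same 8 WT striatal libraries for 22 genes in Q175 mice on vehicle (grey circles), 30 mg/kg (red squares) and 100 mg/kg (blue triangles). The 3 symbols of a gene lie on the same side of 0 except for Hdac5, at 0.31 on vehicle, against −0.19 at 30 mg/kg and −0.21 at 100 mg/kg.

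In cortex of the same mice, 82 genes rose and 39 fell at 30 mg/kg relative to WT, 0.688% of 17597 tested. The treated cortical replicates M3 and F4 and the WT cortical replicate F1 held skeletal muscle transcripts, at 1114, 5257 and 18.7 times the median. Without these 3 libraries 0 of 17748 genes were called with edgeR (0%, with 825 at an unadjusted p under 0.05, fewer than 1 in 20), and DESeq2 called 118 with all libraries. The effect in striatum minus the effect in cortex was tested with limma on log2 CPM of striatum minus that of cortex in the same animal. It passed for 117 of 16888 genes (0.693%), 65 positive and 52 negative.

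Of the genes named here, 27 of 108 tested had a different effect in striatum and cortex. Wt1 differed by 3.98 ± 0.58 (log2, adjusted p = 0.000235), with effects of 5.36 in striatum and 1.23 in cortex. Sfmbt2 differed by 1.72 ± 0.18 (adjusted p = 2.09e-06) and Ddit4l by −1.42 ± 0.21 (adjusted p = 0.000328). Without the animals that had a striatal or cortical library with liver or muscle transcripts, 4 WT and 6 treated animals remained and 4 genes passed (0.0237%, with 0.0178% positive and 0.00592% negative), Sfmbt2 (1.56, adjusted p = 0.0026), Teddm2 (1.05, 0.00695), Pcdhb3 (0.88, 0.00804) and Krt9 (−0.86, 0.00804). Without only the animals with muscle transcripts in cortex, 7 WT and 6 treated remained and 42 genes passed. Ryr1, also the calcium release channel of skeletal muscle, had a cortical effect of 1.91, and −0.14 without the libraries that held muscle transcripts. Pde10a had effects of −0.88 in striatum and −0.60 in cortex, and their difference did not pass (adjusted p = 0.505). Abhd1 was higher in both tissues, by 1.18 and 1.68 (adjusted p in cortex = 0.0135).

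**Figure D5:**
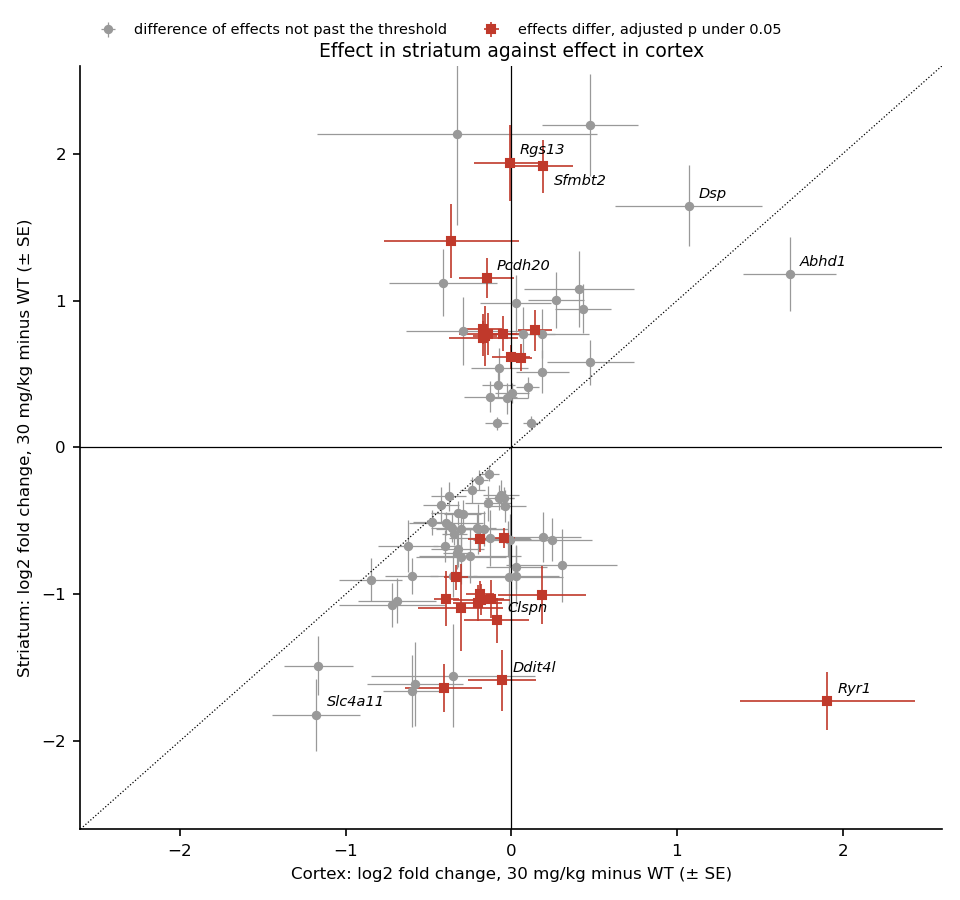
Log2 fold change ± SE of 30 mg/kg against WT in striatum (vertical) and in cortex (horizontal, all libraries) for the 93 named genes called in striatum, tested in cortex and within 2.5 on both axes, with equal effects on the dotted line. The 26 red squares are genes whose effects differ between the tissues, and most of them, such as Sfmbt2 at 1.91 in striatum and 0.19 in cortex, lie near 0 on the cortical axis, while Ryr1 lies at 1.91 there.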

How the data were processed

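Tissue was frozen on dry ice and its total RNA taken with a Qiagen miRNeasy kit for sequencing, per the labels' protocols. CASAVA 1.8.2 was used, per the submitters' processing notes. Which aligner, build, annotation and strand setting were chosen is not given in the sources used here. The authors deposited a table of estimated counts for 43432 genes, in which 26.3% of the nonzero values lay over 0.001 from a whole number, and a table of FPKM for the same libraries. Estimated counts were rounded. The main test was edgeR 4.0.16 in R 4.3.3 (filterByExpr, TMM, robust quasi-likelihood fit, Benjamini-Hochberg adjustment over 17229 genes at 0.05). Group and sex were terms, and all 32 striatal libraries were fitted, so that they share 1 estimate of the spread. Standard errors came from the F statistics. DESeq2 1.42.0, limma 3.58.1 on log2(FPKM + 0.1) and the other settings named in the closing section were alternatives. The deposited FPKM were used only there. The difference between tissues was tested with limma on log2 CPM (prior count 2).

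Libraries were called apart where the summed level of liver or muscle markers was over 10 times the median of the tissue. Groups, sex and replicate numbers came from the sample titles. No columns were identical. Gene symbols, chromosomes and gene order came from a GRCm38 annotation by Ensembl identifier, which matched 42462 of the 43432 genes. The scripts were tested on simulated data. The comparison, its members and the 44 gene lists were chosen with earlier results of these data known, so counts over lists are descriptions and no list was tested.

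The text names Htt and the 4 targets of the compound, Hdac4, Hdac5, Hdac7 and Hdac9. It also names the called genes with the 12 largest log2 rises and the 12 largest falls, if 1 group averaged 1 CPM or more. Predicted and clone names, Y-linked genes, the RNAs of X inactivation and genes over 100-fold higher in liver than in striatum were left out of these 24. Each list adds its called members, at most 3 in each direction by size of change. Further genes, namely Krt9, Hipk4, Hrk, Traip, Vrk1, Clspn, Oxtr, Sox11, Stmn2, Teddm2, Cyp4x1, Mas1, Drd2, Gpr6, Tac1, Bcl11b, Foxp1, Pde1b, Shank3, Ptpn5, Egr1, Arc, Ezh2, Hoxa7, Onecut2, Dmrta1, Slitrk6, Ifnlr1, Dsg1c, Gm37460 and Grk4, were chosen after their values were seen. Some genes that the rule names are not reported here.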

Additional observations from a re-analysis of the deposited data

Results flagged for a closer look

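Of 232 groups of 8 libraries over the named genes, 13 had 1 library far from the nearest of the others relative to the range of the group, and chance gives about 1 in 20. In WT M1, Alb was at 301.5 CPM, Gc at 26.6 CPM and Dmrta1 at 0.816 CPM. In WT M3, Hpx was at 15.4 CPM, Scn3b at 226 CPM and Foxp1 at 440.1 CPM. In WT M4, Adamts19 was at 0.870 CPM and Shank3 at 111 CPM. Shox2 was at 0.624 CPM in WT F2 and H60b at 1.04 CPM in WT F3. Among treated libraries, Hdac4 was at 26.0 CPM and Glul at 1217 CPM in F2, and Trib3 was at 0.903 CPM in F4. In each case this was the highest library of its group.

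The effect of 30 mg/kg against WT differed between striatum and cortex for 117 genes, by the limma test of each animal's difference. Among the genes named, the log2 effect in striatum minus that in cortex was 3.98 for Wt1, 1.86 for Rgs13, 1.72 for Sfmbt2, 1.62 for Adamts19, 1.28 for Pcdh20, 0.98 for Pcdhb3, 0.94 for Gpr149, 0.94 for Oxtr, 0.92 for Htr2c, 0.83 for Sox11, 0.65 for Teddm2, 0.61 for Cyp4x1 and 0.56 for Stmn2. It was below 0 for genes that fell in striatum, at −2.51 for Ryr1, −1.42 for Ddit4l, −1.30 for Rgs14, −1.18 for Sec14l3, −1.17 for Clspn, −0.92 for Hrk, −0.88 for Traip, −0.84 for Egr2, −0.83 for Scn4b, −0.81 for Krt9, −0.66 for Mas1, −0.56 for Vrk1, −0.55 for Hipk4 and −0.43 for Npas2. Of these 27 genes, Sfmbt2, Teddm2, Pcdhb3 and Krt9 passed without the animals that had a library with liver or muscle transcripts.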

How the results depend on the processing

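With all libraries 1152 genes were called, 572 higher and 580 lower. DESeq2 called 1435, RLE size factors 1142, the 16 libraries fitted alone 970, no filter on low counts 1038 and limma on FPKM 1193. The replicate numbers do not pair the libraries, since the correlation of same-numbered libraries ran from −0.38 to 0.28 and 1 of 8 pairs was best matched by its own number, and with a replicate block 1051 genes were called. Without the 3 WT libraries that held liver transcripts 546 genes were called, 270 higher and 276 lower, from fewer libraries. Within the forms of the column name, an alternative chosen after seeing the data, 186 were called with a lane and an index (70 higher, 116 lower) and 91 with a number (28 higher, 63 lower), again from fewer libraries. Leaving out each library in turn gave 868 to 1390 genes.

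Htt was at −0.49 to −0.40 with 1 library left out and at −0.47 within the libraries with a number, where it did not pass (adjusted p = 0.135). Of the deacetylases, which passed nowhere, Hdac5 turned to 0.0221 and Hdac7 to 0.16 within the libraries with a number, and Hdac9 to 0.11 within those with a lane and an index. With 1 library left out, Hdac7 ran from −0.18 to 0.0247 and Hdac9 from −0.0874 to 0.0113, turning above 0 for Hdac7 at 0.00621, 0.0104, 0.0213 and 0.0247 without the treated F1, F3 and M4 and WT F1, and for Hdac9 at 0.0105 and 0.0113 without the treated F4 and WT F4. Hdac4 ran from −0.23 to −0.11 and Hdac5 from −0.34 to −0.08. The cause was not tested. Alb, Gc and Hpx turned to 0.80, 1.44 and 0.0123 without the 3 WT libraries.

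Of 106 named genes called, 72 were called again without the 3 WT libraries and 82 in all 16 fits without 1 library. All 105 of them that could be fitted within both forms of the column name kept their direction there. They were called with these same libraries, so the kept direction is no independent support. The sex difference had 0 calls with edgeR and 7 with DESeq2. Cortex had 121 calls and 0 without the libraries that held muscle transcripts, and the difference between tissues 117, then 4 without animals that had a library apart, or 42 without those with muscle transcripts in cortex only, an alternative chosen after seeing the data. Of striatum-enriched genes 41% fell in the top 100 and 29.5% in the top 200. In WT the medians of Wt1, Onecut1 and Hoxa7 were at most 0.0894 CPM and Hoxc4 was at 0, beside 0.0893 CPM for 3 counts, so depth limits the size of these rises.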
